A study of Homo sapiens with 6 samples.

Results

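The genes described are mostly those of the enzymes that fluorouracil inhibits, that convert it to nucleotides and that degrade it: TYMS, UPP1, TYMP, TK1, UMPS, RRM1, RRM2, RRM2B and DPYD. With them stands CDA, whose enzyme acts in the activation of the prodrug capecitabine. A gene was taken from the array when GEO's platform annotation gave a transcript cluster, the array's unit for 1 transcribed locus, that symbol and no other. This gave 9 of the 10 genes, each with 1 cluster, among 22465 named genes in all. RRM1 lay only on a cluster shared with LINC02749, a long noncoding RNA, and no value is given for it. The samples were 6 arrays of cells labelled HepG2, a hepatoblastoma-derived line. On 3 arrays the cells stably carried the lentiviral hairpin shSND1-#1 in the pLKO vector. On the other 3 arrays they stably carried pLKO with no hairpin named. Cells of both groups were given 5-Fu (fluorouracil) at 6 µg/mL for 48 h, so the effect of the drug itself is not measured. One hairpin was used, and the labels do not say whether a line is 1 clone or whether replicates are separate cultures. Loss of SND1, other effects of this hairpin and the history of each line therefore cannot be told apart, and p-values measure only the spread between these arrays.

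Fluorouracil is a uracil analogue that acts after conversion to nucleotides. Orotate phosphoribosyltransferase, an activity of the UMPS protein, adds ribose phosphate to it directly, UPP1 (uridine phosphorylase) makes the ribonucleoside, and TYMP (thymidine phosphorylase) makes the deoxyribonucleoside, which TK1 (thymidine kinase) phosphorylates. Ribonucleotide reductase, built from the large subunit RRM1 and a small subunit, RRM2 or RRM2B, turns fluorinated ribonucleotides into deoxyribonucleotides. The fluorinated deoxyuridylate binds and blocks thymidylate synthase, the product of TYMS, while DPYD (dihydropyrimidine dehydrogenase) starts the breakdown of the drug, mainly in liver. CDA (cytidine deaminase) turns cytosine nucleosides into uracil nucleosides and acts in the activation of the prodrug capecitabine.

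The start regions of 4 of these genes are shown because TYMS, TK1 and RRM2 are genes of DNA synthesis with known S-phase promoters and CDA had the most negative difference of the set. Each line gives 150 bases before and 10 bases after a transcription start in RefSeq (GRCh38.p14), read 5′ to 3′ on the strand of the gene. Capitals mark the box CCAAT or its reverse ATTGG, and the E2F-type letters TTTCCCGC or TTTGGCGC or their reverses GCGGGAAA and GCGCCAAA.
RRM2 (chr2:10122589-10122748, plus strand): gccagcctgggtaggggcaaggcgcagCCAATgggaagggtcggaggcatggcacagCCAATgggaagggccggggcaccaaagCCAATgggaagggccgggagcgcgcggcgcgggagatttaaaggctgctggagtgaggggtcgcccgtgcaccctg
TK1 (chr17:78187043-78187202, minus strand): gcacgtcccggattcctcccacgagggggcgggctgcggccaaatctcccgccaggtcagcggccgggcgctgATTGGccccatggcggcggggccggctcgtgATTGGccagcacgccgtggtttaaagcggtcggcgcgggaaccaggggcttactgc
TYMS (chr18:657503-657662, plus strand): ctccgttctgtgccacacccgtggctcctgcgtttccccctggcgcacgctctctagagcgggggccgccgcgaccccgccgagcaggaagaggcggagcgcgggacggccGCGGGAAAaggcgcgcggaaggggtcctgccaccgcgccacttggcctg
CDA (chr1:20588947-20589106, plus strand): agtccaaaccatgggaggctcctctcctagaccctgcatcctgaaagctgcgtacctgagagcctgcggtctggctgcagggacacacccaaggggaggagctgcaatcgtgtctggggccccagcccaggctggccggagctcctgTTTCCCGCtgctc
The RRM2 stretch held 3 CCAAT boxes, which began 123, 93 and 66 bases before the start. Each of them opened the 13 letters CCAATGGGAAGGG, a run picked out after the sequence was read. Among the 35116 RefSeq start windows of 300 bases, 10 held this run on either strand, and the RRM2 window was the 1 with 3 copies. TK1 held 2 boxes in the reverse orientation, beginning 77 and 46 bases before the start, and no exact match to the E2F-type letters above. Near matches were not searched for in any of the genes. TYMS held GCGGGAAA beginning 39 bases before the start, and CDA held TTTCCCGC beginning 3 bases before it. CCAAT in either orientation was in 34.6% of all windows, TTTCCCGC or its reverse in 1.63% and TTTGGCGC or its reverse in 0.652%. Of the 8 measured genes with a window in the table, 3 held CCAAT (RRM2, TK1 and TYMP) and 2 an E2F-type run (TYMS and CDA), while RRM2B had no entry. A match is a run of letters and not a binding site.

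The targeted transcript was lower in the knockdown cells. The cluster annotated with SND1 and its intronic transcript SND1-IT1 had log2 signals of 5.82, 5.69 and 5.88 in shSND1 cells, against 7.44, 7.25 and 7.16 in vector cells. In shSND1 cells 35.6% of the vector signal was left, a log2 change of -1.49 with an SE of 0.09 (limma adjusted p = 0.0166 over all 67528 clusters). Leaving out vector replicate 1, vector replicate 2 or any 1 shSND1 array raised this adjusted p to between 0.0773 and 0.249. Array medians lay between 3.58 and 3.74 (log2), and shSND1 replicate 1 and vector replicate 3 were closer to each other over the named genes (SD of the difference 0.14) than arrays of the same group were (0.147 to 0.193). Markers went against the label HepG2: ALB (albumin) and AFP (alpha-fetoprotein), 2 defining products of that line, reached no more than the 8.55th and 5.15th percentile of named genes on any array, and 2 of 8 measured hepatocyte markers lay above the median level. Of the measured markers of other cell types, 1 of 4 mesenchymal, 0 of 3 leukocyte and 0 of 3 endothelial ones lay above it, and so did all 6 of gut or biliary epithelium. The summed signal of the 6 gut or biliary markers on the linear scale was 2516 to 2704 in shSND1 cells and 2960 to 3236 in vector cells, and that of the hepatocyte markers was 104 to 111 in shSND1 cells and 121 to 129 in vector cells. The markers within these sums differed by unequal amounts: LGALS4 (-0.82, limma adjusted p = 0.00954) was the 1 gut or biliary marker that passed, KRT19 had -0.33, CDH17 -0.03 and KRT7 0.12, and of the hepatocyte markers SERPINA1 had -0.43 and ALB 0.01. As a mean of log2 values, the hepatocyte markers overlapped between the groups, with 2.93 to 3.03 in shSND1 cells and 3.02 to 3.07 in vector cells. The part of these differences in the results below was not tested.

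None of the 9 measured genes passed limma's test over all named genes at an adjusted p under 0.05, a threshold that 0.169% of all named genes passed. At an unadjusted limma p under 0.05, 2 genes (RRM2 and TK1) were higher and 2 (CDA and RRM2B) were lower in shSND1 cells. Of all named genes 4.85% were higher and 7.34% lower at that level, 12.2% in all, and of those above the median level, where 8 of the 9 lie, 16.4% in all. For the same 4 genes the shSND1 and vector arrays did not overlap, as for 17.9% of all named genes and 24.7% of those above the median level. The genes were listed with earlier results of these arrays known, so these shares describe the set. The median change of the 9 genes was 0.03, against 0.01 for all named genes. The count at an unadjusted p under 0.05 was 2 without vector replicate 2 and 2 without shSND1 replicate 1, and RRM2 and CDA were under it in each of their 16 alternatives.

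**Figure D1:**
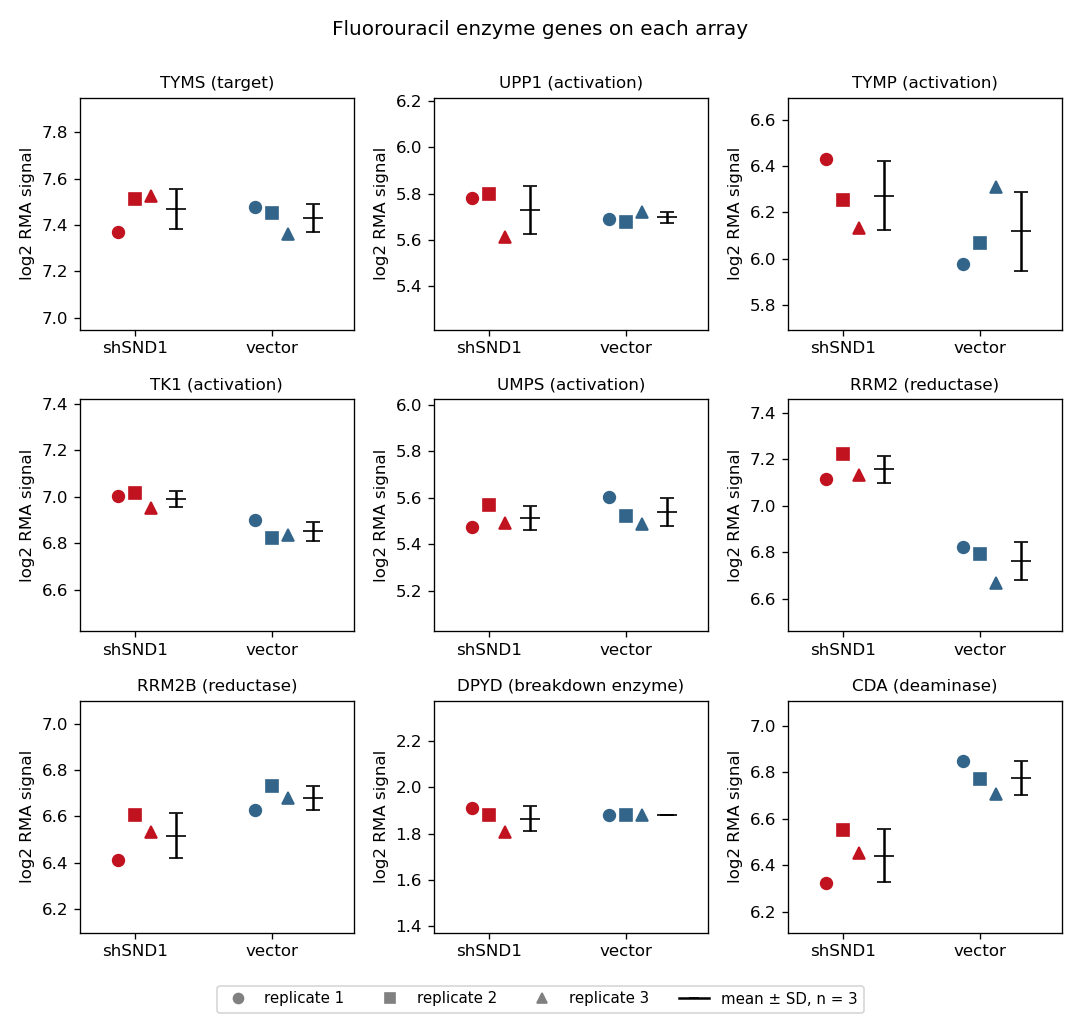
Log2 RMA signal (vertical axis, 1 log2 unit in height in every panel) of the 9 measured genes on each array, shSND1 at the left and vector at the right of each panel. Symbols are replicates, and bars are the mean ± SD of 3 arrays: the groups lie apart for TK1, RRM2, RRM2B and CDA and overlap or touch for the other 5 genes.

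TYMS (chromosome 18), the gene of the drug's target, had nearly the same signal in both groups. It had 7.37, 7.51 and 7.53 in shSND1 cells, against 7.48, 7.45 and 7.36 in vector cells (log2). The groups overlapped, with shSND1 replicate 1 and vector replicate 3 lowest. The difference was 0.04 (SE 0.06, 95% confidence interval -0.11 to 0.19, limma adjusted p = 0.839), so the interval leaves room for small shifts either way. In the RefSeq table TYMS overlaps TYMSOS and ENOSF1, and the array's strandedness is not given in the sources used here, so signal from these neighbours cannot be told apart.

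The 4 genes of the activating enzymes showed no called difference. UPP1 (chromosome 7) had 5.78, 5.80 and 5.61 in shSND1 cells, against 5.69, 5.68 and 5.72 in vector cells, and its vector arrays lay inside the range of its shSND1 arrays (difference 0.03, SE 0.06, limma adjusted p = 0.86). UMPS (chromosome 3) had 5.47, 5.57 and 5.49 in shSND1 cells, against 5.60, 5.52 and 5.49 in vector cells, with a difference of -0.03 (SE 0.06, adjusted p = 0.881). The 95% confidence intervals of the difference were -0.12 to 0.18 for UPP1 and -0.16 to 0.11 for UMPS. The UMPS locus overlaps MIR544B and RPS26P22 in the RefSeq table.

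TYMP (chromosome 22) was the most scattered gene of the set. It had 6.43, 6.25 and 6.13 in shSND1 cells, against 5.98, 6.07 and 6.31 in vector cells. Vector replicate 3 lay above 2 of the 3 shSND1 arrays. The difference of 0.15 had an SE of 0.11, the largest of the 9 genes, and a 95% confidence interval of -0.09 to 0.40 (limma adjusted p = 0.608), and it ran from 0.07 without shSND1 replicate 1 to 0.25 without vector replicate 3. The TYMP locus overlaps SCO2, a mitochondrial copper chaperone gene.

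TK1 (chromosome 17), the salvage kinase that works next after TYMP, had 7.002, 7.02 and 6.95 in shSND1 cells, against 6.90, 6.82 and 6.83 in vector cells. Every shSND1 array lay above every vector array, by a small margin. The difference was 0.14 (SE 0.05, 95% confidence interval 0.02 to 0.26), a 1.10-fold higher signal that did not pass over all named genes (limma adjusted p = 0.348). It was 0.08 with arrays centred on their medians, a setting that lowers the median change of all named genes to -0.05, against 0.01 as reported.

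Ribonucleotide reductase held the highest positive difference of the set and a negative one, in its alternative small subunits. RRM2 (chromosome 2, cluster TC02000057.hg.1), the subunit that cycling cells make in S phase, had 7.12, 7.22 and 7.13 in shSND1 cells, against 6.82, 6.79 and 6.67 in vector cells (log2). All shSND1 arrays lay above all vector arrays, and the gap between the groups was wider than the range within either. The means were 7.16 ± 0.06 in shSND1 cells and 6.76 ± 0.08 in vector cells (SD, n = 3 each), a difference of 0.40 (SE 0.06, 95% confidence interval 0.25 to 0.54), or 1.32-fold. Its limma adjusted p was 0.0823 over all named genes. An exact permutation test (two-sided) gave p = 0.1, the lowest value that 3 arrays against 3 allow. In size this difference exceeded 98.7% of those of named genes above the median level. In the RefSeq table RRM2 overlaps LOC124906144, MIR4261 and LOC105373424, and signal from these loci cannot be told apart here.

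RRM2B (chromosome 8), the small subunit that p53 induces and that serves DNA repair and mitochondrial DNA outside S phase, had 6.41, 6.61 and 6.53 in shSND1 cells, against 6.63, 6.73 and 6.68 in vector cells. The groups lay apart, with shSND1 replicate 2 close below vector replicate 1. The difference was -0.16 (SE 0.07, 95% confidence interval -0.32 to -0.01, limma adjusted p = 0.383), a signal at 89.4% of that in vector cells. Without shSND1 replicate 1 and vector replicate 3 together, a setting chosen after seeing the data, it was -0.11, while that of RRM2 was 0.37.

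The balance of the small subunits was then followed within each array. The 3 pairs were picked after their values were seen and restate the differences above, so they are given without a test. RRM2 minus RRM2B was 0.70, 0.62 and 0.60 on the shSND1 arrays, against 0.20, 0.06 and -0.01 on the vector arrays. This log2 ratio of probe signals, which says nothing of relative abundance, was higher by 0.56 in shSND1 cells. RRM2 minus TYMS was -0.25, -0.29 and -0.39 on the shSND1 arrays, against -0.65, -0.66 and -0.70 on the vector arrays, a shift of 0.36. TK1 minus TYMS overlapped between the groups and shifted by 0.10.

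DPYD (chromosome 1), the gene of the enzyme that limits the breakdown of the drug, lay near the floor of the arrays. It had 1.91, 1.88 and 1.81 in shSND1 cells, against 1.88 on each vector array, between the 8.26th and 9.06th percentile of named genes. Its deposited value was identical to the last digit on 4 of the 6 arrays, which 94 of the 67528 clusters showed on 4 or more arrays. The difference of -0.02 (SE 0.05, limma adjusted p = 0.928) therefore does not bound a change in transcript amount, since signals at the floor are compressed. No detection call came with the values, so whether DPYD RNA was present is not known from them. The DPYD locus overlaps 8 other loci in the RefSeq table.

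CDA (chromosome 1, cluster TC01000261.hg.1) had the most negative difference of the set. It had 6.32, 6.55 and 6.45 in shSND1 cells, against 6.85, 6.77 and 6.71 in vector cells (log2). All shSND1 arrays lay below all vector arrays. The means were 6.44 ± 0.12 in shSND1 cells and 6.78 ± 0.07 in vector cells (SD, n = 3 each), a difference of -0.33 (SE 0.07, 95% confidence interval -0.51 to -0.16), or 79.3% of the vector signal. It did not pass over all named genes (limma adjusted p = 0.139, exact two-sided permutation p = 0.1). Its size exceeded 97.4% of those of named genes above the median level. The difference was -0.27 without shSND1 replicate 1 and -0.39 without shSND1 replicate 2.

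**Figure D2:**
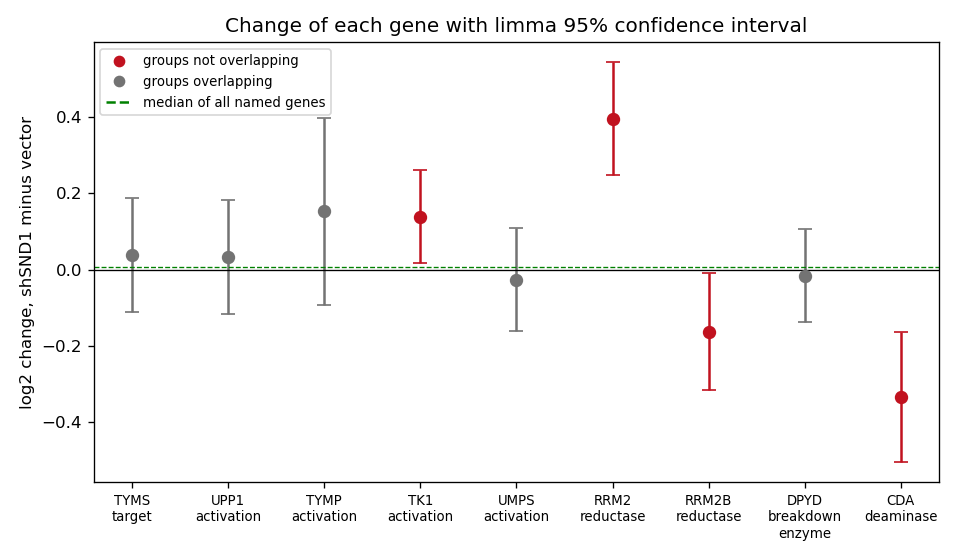
Log2 change, shSND1 minus vector (vertical axis), of each measured gene in the order target, activation, reduction, breakdown and deamination, with limma's 95% confidence interval from 6 arrays. RRM2 at 0.40 and CDA at -0.33 lie farthest from the dashed line, the median of all named genes (0.01), and no gene passed an adjusted p of 0.05.

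**Figure D3:**
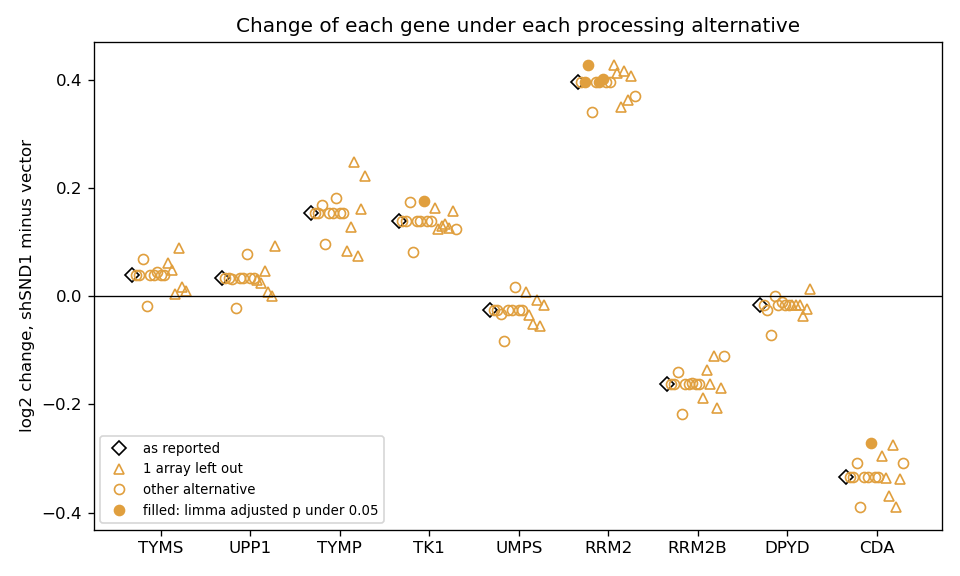
Log2 change, shSND1 minus vector (vertical axis), of each gene as reported (diamond), with 1 array left out (triangles) and under the other processing alternatives (circles), filled where limma's adjusted p was under 0.05. RRM2 stayed between 0.34 and 0.43 and CDA between -0.39 and -0.27, while TYMS, UPP1, UMPS and DPYD lay on both sides of 0.

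The genes around these enzymes were then described from 6 lists. Of 79 listed genes, 71 were measured alone on a cluster, and none passed over all named genes (0.169% of all named genes did). At an unadjusted p from limma under 0.05, 4 of the 71 lay higher in shSND1 cells and 4 lay lower. Of all named genes 12.2% reached that level in all, and of those above the median level, where 63 of the 71 lie, 16.4%. The median change was 0.01, as for all named genes. The count of the 71 at that unadjusted p was 4 without vector replicate 2 and 5 without shSND1 replicate 2.

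Uptake and activation genes beside those above held 1 of 11 at an unadjusted limma p under 0.05. Of all named genes 12.2% reached that level, and of those above the median level, where 9 of the 11 lie, 16.4%. The 1 gene was the nucleoside carrier gene SLC29A1, with 6.30 in shSND1 cells and 6.45 in vector cells (difference -0.16, SE 0.06, limma adjusted p = 0.372). PPAT, the amidotransferase that opens purine synthesis and uses phosphoribosyl pyrophosphate, had a difference of 0.18 (SE 0.08), and the pyrimidine nucleotide kinase gene CMPK1 had 0.13 (SE 0.06). The list's median change was 0.01.

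Of the thymidylate and folate genes, 0 of 10 had an unadjusted limma p under 0.05, and all changes lay between -0.07 and 0.05. Of all named genes 12.2% had such a p, and of those above the median level, where 9 of the 10 lie, 16.4%. SHMT2, the mitochondrial serine hydroxymethyltransferase, had -0.07 (SE 0.06), the folate polyglutamylating enzyme gene FPGS -0.06 (SE 0.06) and the one-carbon enzyme gene MTHFD1 -0.03 (SE 0.07). Downstream of DPYD, the dihydropyrimidinase gene DPYS had 2.91 in shSND1 cells and 2.89 in vector cells, and the beta-ureidopropionase gene UPB1 had 3.84 in shSND1 cells and 3.76 in vector cells. Both lay below the median level of named genes (4.83), as DPYD did.

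Nucleotide supply genes held 1 of 13 at an unadjusted limma p under 0.05, with a median change of -0.02. Of all named genes 12.2% reached that level, and of those above the median level, where 12 of the 13 lie, 16.4%. The 1 gene was NT5E, the cell-surface nucleotidase CD73, with 6.30 in shSND1 cells and 6.55 in vector cells (difference -0.25, SE 0.07, limma adjusted p = 0.196). DGUOK, a mitochondrial deoxynucleoside kinase, had -0.10 (SE 0.07), and TXN, the thioredoxin that can reduce ribonucleotide reductase, had 0.05 (SE 0.06).

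S-phase genes had a median change of 0.09 over 17 measured members, 15 of them positive, as were 52.9% of all named genes. The groups did not overlap for 7 of the 17, PCNA with the lower signal among them, against 17.9% of all named genes and 24.7% of those above the median level, where 15 of the 17 lie. At an unadjusted limma p under 0.05, 3 were higher and 0 lower. Of all named genes 4.85% were higher at that level and 12.2% reached it in either direction, and of those above the median level 16.4% did. The cyclin E genes CCNE1 and CCNE2 had 0.15 (SE 0.06, limma adjusted p = 0.376) and 0.25 (SE 0.10, adjusted p = 0.386). PCNA, the sliding clamp of the replication fork, lay the other way with -0.16 (SE 0.07). The RRM2 difference of 0.40 was above that of each of these 17 genes, the highest of which was 0.25, while the TK1 difference of 0.14 lay within their range.

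Genes that p53 induces, the group to which RRM2B belongs, had a median change of -0.01 over 18 measured members. Of these 6 were positive, as were 52.9% of all named genes. At an unadjusted p from limma below 0.05, 1 was higher and 2 were lower. Of all named genes 12.2% reached that level, and of those above the median level, where all 18 lie, 16.4%. The groups did not overlap for 4 of the 18, against 17.9% of all named genes and 24.7% of those above the median level. The stress cytokine gene GDF15 had 11.15 in shSND1 cells and 11.59 in vector cells (difference -0.44, SE 0.08, adjusted p = 0.0910), and SESN1, a sestrin of the stress response, had 0.28 (SE 0.07, adjusted p = 0.192). RRM2B's difference of -0.16 lay within the range of this list, -0.44 to 0.28.

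**Figure D4:**
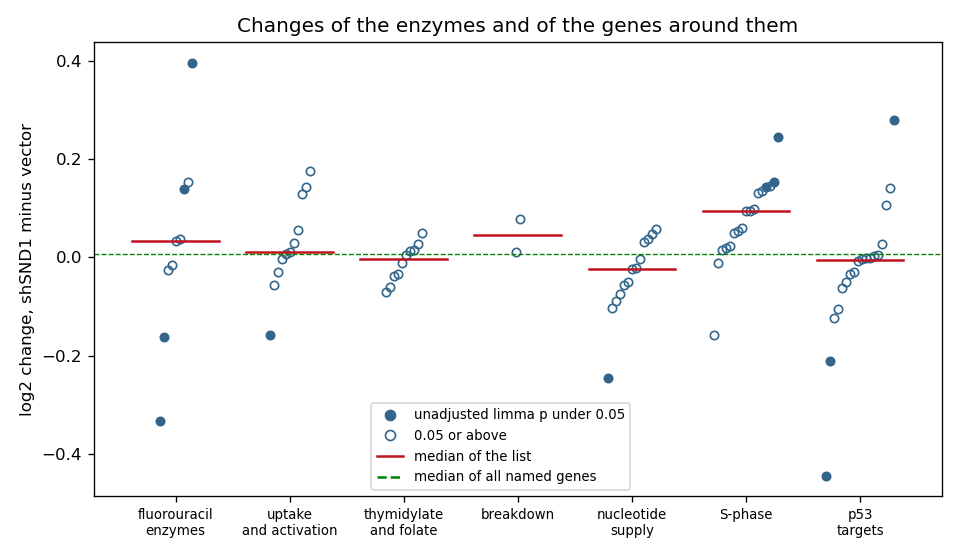
Log2 change, shSND1 minus vector (vertical axis), of the 9 measured enzyme genes and of the 6 lists of genes around them, 1 point a gene, filled where the unadjusted limma p was under 0.05, with the median of each list (red bar) and of all named genes (dashed line). The thymidylate and folate genes lie between -0.07 and 0.05, and the S-phase genes have a median of 0.09.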

How the data were processed

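Total RNA was labelled with biotin and hybridised to 6 Affymetrix whole-transcript arrays, 3 of shSND1 and 3 of vector cells. The authors deposited log2 signals made with RMA (a method that corrects background, quantile-normalizes arrays and summarises probes), per the submitters' processing notes. The version and settings of RMA are not known here. No scanner files were used, and the number of arrays limits the precision. Of 70523 features, 2995 were no transcript clusters and were dropped. Of 67528 clusters, 23781 had 1 symbol, 1543 several and 42204 none in GEO's platform annotation. The brightest cluster stood for a gene, which gave 22465 named genes.

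Groups came from the titles. The change is shSND1 minus vector, fitted with lmFit and eBayes of limma 3.58.1 (R 4.3.3) on all 6 arrays with group as the only term, with Benjamini-Hochberg adjustment over all named genes (over all clusters for SND1), with a threshold of 0.05. SE are limma's moderated ones. Each of the 9 measured genes and the SND1 cluster was also tested with the exact two-sided permutation test. That test gave its lowest possible p, 0.1, for SND1, RRM2, CDA, TK1 and RRM2B. The genes and lists were chosen with earlier results of these data known. The text names the 10 genes, SND1, and for each list up to 3 genes past the threshold or else the 2 with the smallest p and the one with the highest mean. In the lists around them, 4 genes lay only on shared clusters and 4 had no cluster listed, and these were not used. Alternatives were array weights, a robust fit with a variance trend, dropping the dimmest 40%, a block for the replicate number, quantile normalization repeated, centring on array medians, the 30th percentile of all values as floor, all clusters tested together, the mean of a gene's clusters, and leaving out each array. The scripts were tested on simulated data. Promoter sequences are RefSeq's, and motifs were matched letter by letter on both strands. Figures were drawn with matplotlib 3.10.9.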

Additional observations from a re-analysis of the deposited data

How the results depend on the processing

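No alternative turned the sign of RRM2, CDA, TK1, RRM2B, TYMP or SND1. RRM2 (0.0823 as reported) passed limma's adjusted p of 0.05 without the dimmest 40% (change 0.40, adjusted p = 0.0218), with repeated quantile normalization (0.43, 0.0340), with a variance trend (0.40, 0.0383) and with array weights (0.40, 0.0043), and its adjusted p ranged from 0.0043 to 0.316 over 16 alternatives. Each of these settings also called more named genes in all than the 38 as reported. The totals were 271 of 13479 without the dimmest 40%, 61 with repeated quantile normalization and 133 with a variance trend. Array weights, which called 3212, also called TK1 (0.18) and CDA (-0.27). The members past the threshold were therefore 1 in each of the first 3 settings and 3 with array weights, and 0 otherwise. Those at an unadjusted p under 0.05, 4 as reported, were 2 with the replicate block, with all clusters tested together and without the 2 nearest arrays. They were 3 with repeated quantile normalization and with arrays centred, 5 with array weights, and 2 to 4 with 1 array left out. The wider genes past the threshold, 0 as reported, were 1 without the dimmest 40% and 9 with array weights. At an unadjusted p under 0.05, 8 as reported, they were 4 with all clusters, 5 with the block, 6 with arrays centred and 22 with array weights. They were 10 with repeated quantile normalization and with the floor, 12 with a variance trend, and 4 to 10 with 1 array left out. The share of all named genes at that unadjusted p was not taken under the alternatives. The median change of all named genes was -0.05 with arrays centred. The sign turned for TYMS (-0.018) and UPP1 (-0.023) with arrays centred and for UMPS (0.017) with array weights, and with 1 array left out UMPS ranged from -0.055 to 0.0074 and DPYD from -0.037 to 0.014. The SND1 change of -1.49 lost its call with the block (adjusted p = 0.142) and with the floor (-1.49, adjusted p = 0.178), and ranged from -1.55 to -1.41 with 1 array left out. Whether the replicate numbers pair the samples is not known. Same-numbered arrays deviated from their group means with correlations of -0.36, 0.11 and -0.49, and 1 of 3 shSND1 arrays correlated best with its own number. With 3 arrays centred on each group's mean, these correlations depend on one another, so they cannot decide the question. Under the block RRM2 had an adjusted p of 0.281 and CDA 0.359. DPYD lies among the dimmest 40% and has no value there. The causes of these moves were not tested. Low signals limit what can be said of DPYD, near the floor, and of DPYS and UPB1, below the median level of named genes.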
